A study of Mus musculus with 16 samples.

Results

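The guanylate-binding proteins (Gbps) were followed in the RNA of 16 B16F10 tumors. The rows of the deposited gene table whose symbol was Gbp2, Gbp3, Gbp4, Gbp5, Gbp6, Gbp7, Gbp8, Gbp9, Gbp10 or Gbp11 were taken, which gave 10 members of the 45777 genes listed. The family was selected on its levels in these same 4 groups of tumors, so those levels and their fold changes are a description and carry no test. Gbp2b, the other Gbp gene in the table, is not a member and is given only for comparison.

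B16F10 is a melanoma cell line of C57BL/6 origin. All hosts were 6 weeks old when the cells were injected under the skin, per the methods of the study. The lean hosts were C57BL/6J mice and the obese hosts were C57BL/6J-ob/ob mice, which lack leptin from birth and so model obesity without a change of diet. Because the ob/ob lesion lies in the host, the injected cells were the same line in all groups. In each host, 4 tumors came from the pre-therapy group and 4 from the group after chemotherapy with etoposide (ETS), a topoisomerase II inhibitor given 5 times at 20 mg per kg into the peritoneum. The study does not state whether pre-therapy and treated tumors were collected on the same day, so therapy and time of collection cannot be told apart. The labels do not state that each tumor came from a separate mouse, so the p-values given for genes outside the family measure only the spread between these samples.

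Gbps are large GTPases of the cell-autonomous defense against intracellular pathogens. Interferon-γ signals through its receptor and the Jak kinases, and transcription factors such as Irf1 turn on the Gbp genes in macrophages and in many other cell types, tumor cells included. The proteins assemble on the vacuoles of parasites and on the surface of bacteria, together with the immunity-related GTPases (IRGs), and they help caspase-4 (also called caspase-11) and Aim2 inflammasomes to respond. In tumors, Gbp transcripts are widely read as part of an interferon-γ response.

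The members lie in 2 clusters, one on chromosome 3 and the other on chromosome 5 (GRCm38.p6 gene table of RefSeq, matched on gene identifiers). On chromosome 3, on the plus strand, Gbp5, Gbp7, Gbp3, Gbp2b and Gbp2 follow each other from 142496934, the start of Gbp5, to 142638008, the end of Gbp2. On chromosome 5, on the minus strand, Gbp8, Gbp9, Gbp4, Gbp10, Gbp6 and Gbp11 lie between 105012513 and 105346476. Gbp11 is annotated as a transcribed pseudogene and the other 9 members as protein coding. The RefSeq promoter table held windows for 4 of the 10 members, each from 250 bases before to 50 after an annotated start. The windows of Gbp2 (chr3:142620413-142620712), Gbp3 (chr3:142559794-142560093), Gbp5 (chr3:142496684-142496983) and Gbp7 (chr3:142530086-142530385) are printed on the plus strand, since these members had the same pattern across the 4 groups. The capitals mark matches to a pair of motifs that were searched on both strands. The core of the interferon-stimulated response element (ISRE), a site of IRF proteins, was taken as GAAA, a gap of 2 bases and GAAA, which reads TTTC, the gap and TTTC on the other strand. The interferon-γ activated site (GAS), an element of many interferon-γ target genes, was taken as TTC, a gap of 3 bases and GAA.
Gbp2: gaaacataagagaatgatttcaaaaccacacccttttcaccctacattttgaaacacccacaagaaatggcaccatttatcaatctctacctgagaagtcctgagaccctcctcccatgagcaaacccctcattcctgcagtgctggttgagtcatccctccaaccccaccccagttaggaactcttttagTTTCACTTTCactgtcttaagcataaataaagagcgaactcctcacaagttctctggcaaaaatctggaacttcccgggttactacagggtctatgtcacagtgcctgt
Gbp3: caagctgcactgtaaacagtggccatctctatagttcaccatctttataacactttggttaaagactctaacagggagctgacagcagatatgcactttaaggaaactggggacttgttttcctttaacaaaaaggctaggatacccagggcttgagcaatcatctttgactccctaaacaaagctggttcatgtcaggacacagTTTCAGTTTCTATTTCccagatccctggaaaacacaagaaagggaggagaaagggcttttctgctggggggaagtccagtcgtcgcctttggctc
Gbp5: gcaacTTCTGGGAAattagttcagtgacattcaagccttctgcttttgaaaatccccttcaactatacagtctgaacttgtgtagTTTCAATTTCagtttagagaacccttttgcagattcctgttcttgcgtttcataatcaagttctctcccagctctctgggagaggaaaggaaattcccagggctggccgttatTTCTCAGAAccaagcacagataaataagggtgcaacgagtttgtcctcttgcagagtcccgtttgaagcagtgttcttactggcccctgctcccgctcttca
Gbp7: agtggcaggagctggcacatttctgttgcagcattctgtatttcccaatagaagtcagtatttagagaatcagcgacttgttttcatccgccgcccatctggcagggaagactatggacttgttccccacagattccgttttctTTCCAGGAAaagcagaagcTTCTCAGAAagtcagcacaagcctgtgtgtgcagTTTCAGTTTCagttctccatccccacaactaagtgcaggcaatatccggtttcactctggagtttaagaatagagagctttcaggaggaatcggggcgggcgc

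All 4 of these windows held at least 1 ISRE core, and in every case it read TTTC on the strand shown. Its first base lay at position -59 from the start in Gbp2, at -45 and -39 in Gbp3 (where the matches overlap), at -165 in Gbp5 and at -53 in Gbp7. GAS matches stood at -245 and -52 in Gbp5 and at -106 and -87 in Gbp7, and the windows of Gbp2 and Gbp3 held none. A second annotated start of Gbp3 had neither motif in its window. The window of Gbp2b held an ISRE core at -137. Of all 32544 promoter windows of the table, 3.45% held the ISRE core, 8.33% held a GAS and 0.455% held both. A match is a run of letters and not a measured binding site.

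The coding sequences of the members (GENCODE vM21) were between 65.8% identical (Gbp4 and Gbp5) and 98.4% identical (Gbp6 and Gbp10). Reads of near copies can be split or shared between genes. Of all stretches of coding sequence of the length of 1 read, 43.1% in Gbp6 and 41.4% in Gbp10 occurred in another Gbp gene as well, and 39.6% in each occurred in the other gene of this pair. The levels of Gbp6 and Gbp10 are therefore uncertain relative to each other. The shares were 7.34% in Gbp11, 6.97% in Gbp4, 5.90% in Gbp8, 4.78% in Gbp9, 1.31% in Gbp3 and 1.27% in Gbp7, and Gbp2 and Gbp5 had no such stretch. Gbp2 overlaps the microRNA gene Mir6381, Gbp3 overlaps the long noncoding RNA Gm40158 and Gbp10 overlaps the long noncoding RNA Gm31785.

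Total counts per tumor lay between 47199949 and 61655287. The labels name the samples as cells of allograft tumors, and all 7 melanocyte markers (Mlana, Pmel, Tyr, Tyrp1, Dct, Sox10 and Mitf) had counts in all 16 tumors, with a sum between 10692 and 26070.4 CPM, the count scaled to the depth of the library. Markers of host macrophages, endothelium and fibroblasts were present as well, so the tumors hold host cells. In such bulk samples, fewer cells of a type and less RNA per cell cannot be told apart. The obese pre-therapy tumors split into a pair with higher Gbp levels (tumors 1 and 2) and a pair with lower ones (tumors 3 and 4). Of the 10 members, 5 had a count of 0 in obese pre-therapy tumor 4, namely Gbp4, Gbp6, Gbp8, Gbp10 and Gbp11. Gbp8 also had 0 in tumor 1 of that group and Gbp11 in tumor 3. The study excluded genes with a 0 in any sample, and under this filter 5 members remained for the fit, namely Gbp2, Gbp3, Gbp5, Gbp7 and Gbp9. The other 5 are given from the same fit with no gene excluded for a 0. Passing the filter depended on the level in the obese pre-therapy tumors.

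Every member was highest in the lean pre-therapy tumors and lowest on average in the obese pre-therapy tumors, and the means of the treated tumors of both hosts lay between them. Summed over the 10 members, the level per transcript length (TPM, scaled to transcript length and depth) was 654, 1663, 1234 and 1340.3 in the 4 lean pre-therapy tumors. It was 45.3, 30.4, 22.7 and 22.1 in lean tumors after ETS, 20.4, 27.5, 3.50 and 2.20 in obese tumors before therapy, and 35.0, 32.0, 64.5 and 52.9 in obese tumors after ETS. The lean pre-therapy tumors stood apart from the other 12, while obese tumors before and after ETS did not overlap either, their nearest values being 27.5 and 32.0. The ranges of the treated tumors overlapped between the hosts.

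**Figure D1:**
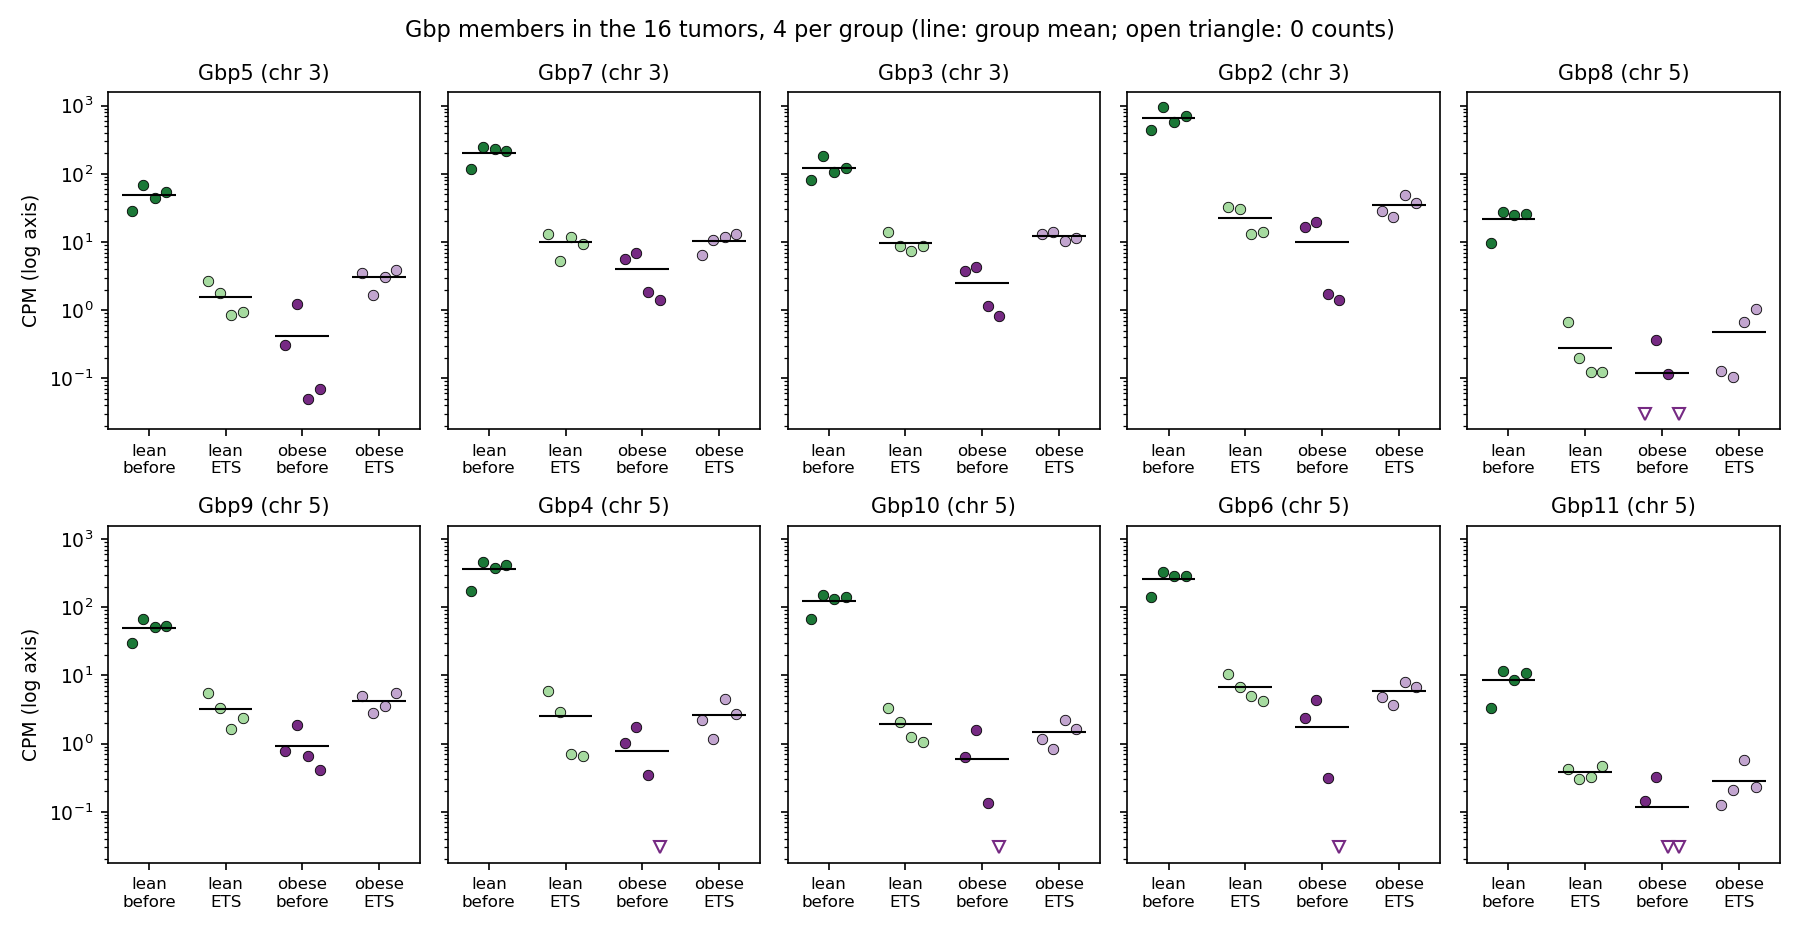
Level of each Gbp member in the 16 tumors in CPM on a log axis, with 4 tumors per group as points, the group mean as a line and counts of 0 as open triangles at a nominal height. For all 10 members the 4 lean pre-therapy tumors lie above every other tumor, and 5 members have a 0 in obese pre-therapy tumor 4.

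On chromosome 3, Gbp2, a prenylated Gbp that gathers on parasite vacuoles and supports caspase-4 and Aim2 inflammasomes, was the most abundant member in all 4 groups. Its level was 442, 944, 571 and 703 CPM in lean tumors before therapy and 32.8, 30.3, 13.1 and 14.2 CPM after ETS. In obese tumors it was 16.5, 19.7, 1.74 and 1.40 CPM before therapy and 28.4, 23.1, 48.3 and 37.3 CPM after ETS. The lean values did not overlap between before and after ETS, and neither did the obese values, in which the order was the opposite. The log2 fold change with ETS was -4.88 (SE 0.73) in lean and 1.81 (SE 0.65) in obese tumors.

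Gbp5, which is known to promote the Nlrp3 inflammasome, had 28.9, 69.0, 44.7 and 53.5 CPM in lean tumors before therapy and 2.69, 1.76, 0.859 and 0.928 CPM after ETS. In obese tumors it had 0.310, 1.24, 0.0502 and 0.0706 CPM before therapy, the last pair being 3 and 4 counts, and 3.48, 1.65, 3.01 and 3.91 CPM after ETS. No obese tumor after ETS was as low as an obese tumor before it. Gbp5 had the largest fold change with ETS in obese tumors of the 5 members in the fit, 2.89 on the log2 scale (SE 0.67), and also the largest in lean tumors, -4.97 (SE 0.65).

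Gbp3, one of the chromosome 3 genes whose joint loss is known to weaken resistance to Toxoplasma, had 80.5, 181, 105 and 121 CPM in lean tumors before therapy and 14.2, 8.85, 7.27 and 8.72 CPM after ETS. In obese tumors the level was 3.70, 4.33, 1.16 and 0.812 CPM before therapy and 13.1, 14.0, 10.5 and 11.3 CPM after ETS, again without overlap. Its lean fold change was the smallest of the 10 members at -3.64 (SE 0.42) on the log2 scale, and its obese fold change was 2.30 (SE 0.42).

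Gbp7, which is linked to the delivery of oxidase and autophagy components to bacteria in macrophages, had 117, 243, 233 and 216 CPM in lean tumors before therapy and 13.0, 5.25, 11.9 and 9.31 CPM after ETS. In obese tumors it had 5.66, 6.86, 1.86 and 1.43 CPM before therapy and 6.47, 10.6, 11.9 and 12.9 CPM after ETS. The obese groups overlapped here, because treated tumor 1 lay below pre-therapy tumor 2. The log2 fold change was -4.36 (SE 0.47) in lean and 1.42 (SE 0.43) in obese tumors, the smallest of the 5 members fitted in obese tumors.

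On chromosome 5, Gbp4, also known as macrophage activation 2, had 172, 462, 382 and 421 CPM in lean tumors before therapy and 6.01, 2.94, 0.698 and 0.648 CPM after ETS. In obese tumors it had 1.03, 1.73, 0.352 and 0 CPM before therapy and 2.23, 1.15, 4.49 and 2.68 CPM after ETS. Gbp4 showed the widest span of all members, from the second highest mean TPM of the family in lean tumors before therapy to the sixth in lean tumors after ETS and the seventh in both obese groups. The ratio of its mean CPM before therapy to that after ETS was 139.6 in lean tumors. In the fit with no gene excluded, the log2 fold change was -7.15 (SE 0.83) in lean tumors.

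Gbp6 and Gbp10, the near copies, are among the members known to limit bacteria in macrophages. Gbp6 had 143, 329, 289 and 285 CPM in lean tumors before therapy, 10.6, 6.85, 4.98 and 4.17 CPM after ETS, 2.38, 4.33, 0.318 and 0 CPM in obese tumors before therapy, and 4.86, 3.75, 8.13 and 6.81 CPM after ETS. Gbp10 had 66.8, 151, 132 and 144 CPM, then 3.39, 2.08, 1.25 and 1.07 CPM, then 0.641, 1.58, 0.134 and 0 CPM, and 1.18, 0.824, 2.25 and 1.61 CPM in the same order of groups. Both were far higher in lean tumors before therapy than in any other tumor, and both overlapped between obese tumors before and after ETS.

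Gbp9 had 30.2, 68.0, 51.1 and 52.6 CPM in lean tumors before therapy and 5.61, 3.30, 1.65 and 2.42 CPM after ETS. In obese tumors it had 0.786, 1.85, 0.653 and 0.406 CPM before therapy and 5.06, 2.78, 3.52 and 5.50 CPM after ETS. It was the only chromosome 5 member with counts in all 16 tumors and the only one whose obese groups did not overlap. Its log2 fold change was -3.96 (SE 0.45) in lean and 2.20 (SE 0.45) in obese tumors.

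The least abundant members were Gbp8 and the pseudogene Gbp11. Gbp8 had 9.58, 27.7, 24.6 and 26.0 CPM in lean tumors before therapy, at most 0.677 CPM in lean tumors after ETS, at most 0.359 CPM in obese tumors before therapy and at most 1.03 CPM in obese tumors after ETS. Gbp11 had 3.32, 11.6, 8.47 and 10.9 CPM in lean tumors before therapy and at most 0.473, 0.319 and 0.574 CPM in the other groups in the same order. Outside the lean pre-therapy group both rest on few reads, at most 59 counts for Gbp8 and 36 for Gbp11 in any tumor. Gbp2b, outside the family list, had 10.3, 15.6, 2.02 and 9.07 CPM in lean tumors before therapy and no count in any obese tumor before therapy, which makes it at least 164.6-fold higher in the lean group, with 3 counts per library as the floor.

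The comparison of treated with untreated lean tumors asks how the family changed with chemotherapy. All 5 members in the fit were called lower at an adjusted p under 0.05 (edgeR quasi-likelihood test), where 22.8% of all genes tested were called lower. The median log2 fold change of the 5 was -4.36 (range -4.97 to -3.64), and that of all genes tested was -0.01. With no gene excluded, 10 of 10 members were called lower against 12.5% of all genes, with a median of -4.95 (range -7.15 to -3.65). For all 10 members, every treated lean tumor lay below every untreated lean tumor, which held for 13.7% of the 28754 genes with a count. In mean CPM the untreated tumors were 12.5-fold (Gbp3) to 139.6-fold (Gbp4) higher, with a median of 30.4-fold.

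In obese tumors the family moved in the other direction and less far. All 5 members in the fit were called higher after ETS against 21.2% of all genes tested, with a median log2 fold change of 2.20 (range 1.42 to 2.89) beside 0.01 over all genes. With no gene excluded, 4 of 10 members were called higher (Gbp3, Gbp5, Gbp7 and Gbp9) against 10.9% of all genes, and the other 6 had fold changes between 1.34 and 2.03. Gbp2 was called when genes with a 0 were excluded and not with no gene excluded. The untreated and treated obese tumors did not overlap for 4 members (Gbp2, Gbp3, Gbp5 and Gbp9), against 11.1% of the genes with a count. Without obese pre-therapy tumor 3, 3 of the 5 members were called, where 2644 of 16258 genes were called higher. A fit to the obese tumors alone called 3, where 2854 of 16209 genes were called higher. In the main fit 3438 of 16209 genes were called higher. In mean CPM the treated tumors were 2.45-fold (Gbp11) to 7.22-fold (Gbp5) higher.

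Before therapy, obese and lean tumors had the largest median fold difference of the 4 comparisons. All 5 fitted members were called lower in obese tumors against 12.9% of all genes tested, with a median log2 difference of -5.78 (range -6.91 for Gbp5 to -5.62 for Gbp3). With no gene excluded, 10 of 10 were called lower against 7.92% of all genes, and the groups did not overlap for any of the 10, against 10.6% of the genes with a count. The mean CPM was 48.8-fold (Gbp3) to 460.3-fold (Gbp4) higher in lean tumors. This comparison and the one of ETS in lean tumors share the lean pre-therapy tumors, and the comparisons in obese tumors share the obese pre-therapy ones, so none is independent of the others.

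After ETS, the difference between the hosts was small. None of the 5 fitted members was called higher in obese tumors by edgeR, where 3.28% of all genes tested were, and none of the 10 was called with no gene excluded, where 0.887% were. At an unadjusted threshold of 0.05 the count was 0 in both fits as well, and no share of all genes was taken at that threshold. No member was called in this comparison by DESeq2, limma-voom or limma on TPM values either. Of 16209 genes, these called 1125, 615 and 663 higher and 953, 348 and 128 lower, in this order. The log2 differences of the 5 lay between 0.09 (Gbp7, SE 0.42) and 0.95 (Gbp5, SE 0.59), with a median of 0.38, and the groups overlapped for all 10 members, while 4.66% of the genes with a count were higher in obese tumors without overlap. The mean CPM in obese tumors was 0.745 (Gbp11) to 1.93 (Gbp5) times that in lean tumors. With standard errors of 0.38 to 0.84 in the fit with all 10, differences of this size were not detectable here.

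The effect of ETS had opposite signs in the 2 hosts. The difference between the effects, lean minus obese, was called for all 5 fitted members against 10.1% of all genes tested called in the same direction, with a median of -6.16 on the log2 scale (range -7.86 for Gbp5 to -5.77 for Gbp7). With no gene excluded it was called for 10 of 10 against 6.44% of all genes.

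**Figure D2:**
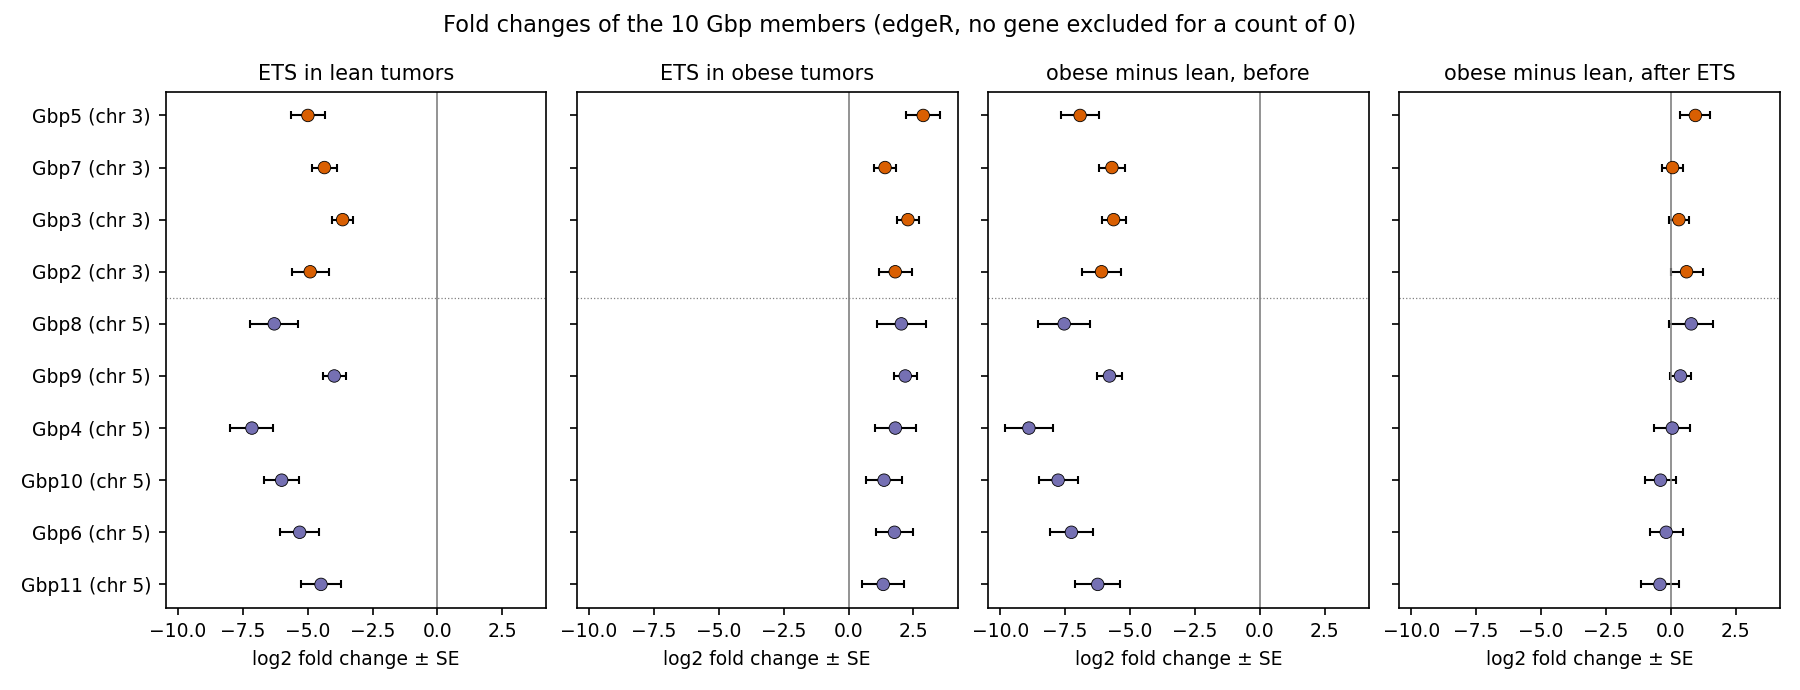
Log2 fold change with its standard error for each of the 10 members in 4 comparisons, from the fit with no gene excluded for a count of 0, with chromosome 3 members in orange and chromosome 5 members in purple. All members lie below 0 for ETS in lean tumors and for obese minus lean before therapy, above 0 for ETS in obese tumors, and within 1 of 0 after ETS.

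The make-up of the family changed along with its level. By TPM, which allows for transcript length, Gbp2 supplied 43.4% to 52.9% of the summed level in lean tumors before therapy and 39.3% to 65.4% in the other 12 tumors. The 6 chromosome 5 members together supplied 29.6%, 32.0%, 39.1% and 36.5% in lean tumors before therapy. In no other tumor did they supply more than 21.9%, and their lowest share was 6.02% in obese pre-therapy tumor 4. That share rests on 23 counts of Gbp9 alone, since the other chromosome 5 members had a count of 0 there. The share of Gbp4 was 11.4% to 16.1% in lean tumors before therapy and at most 4.87% elsewhere. Gbp3 went the other way, with 7.04% to 8.58% in lean tumors before therapy and 11.7% to 26.9% elsewhere. Among the treated tumors, the chromosome 5 share was 15.8% to 21.9% in lean and 10.05% to 14.6% in obese hosts, without overlap, and the 6.02% to 17.5% of obese tumors before therapy overlapped with both.

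**Figure D3:**
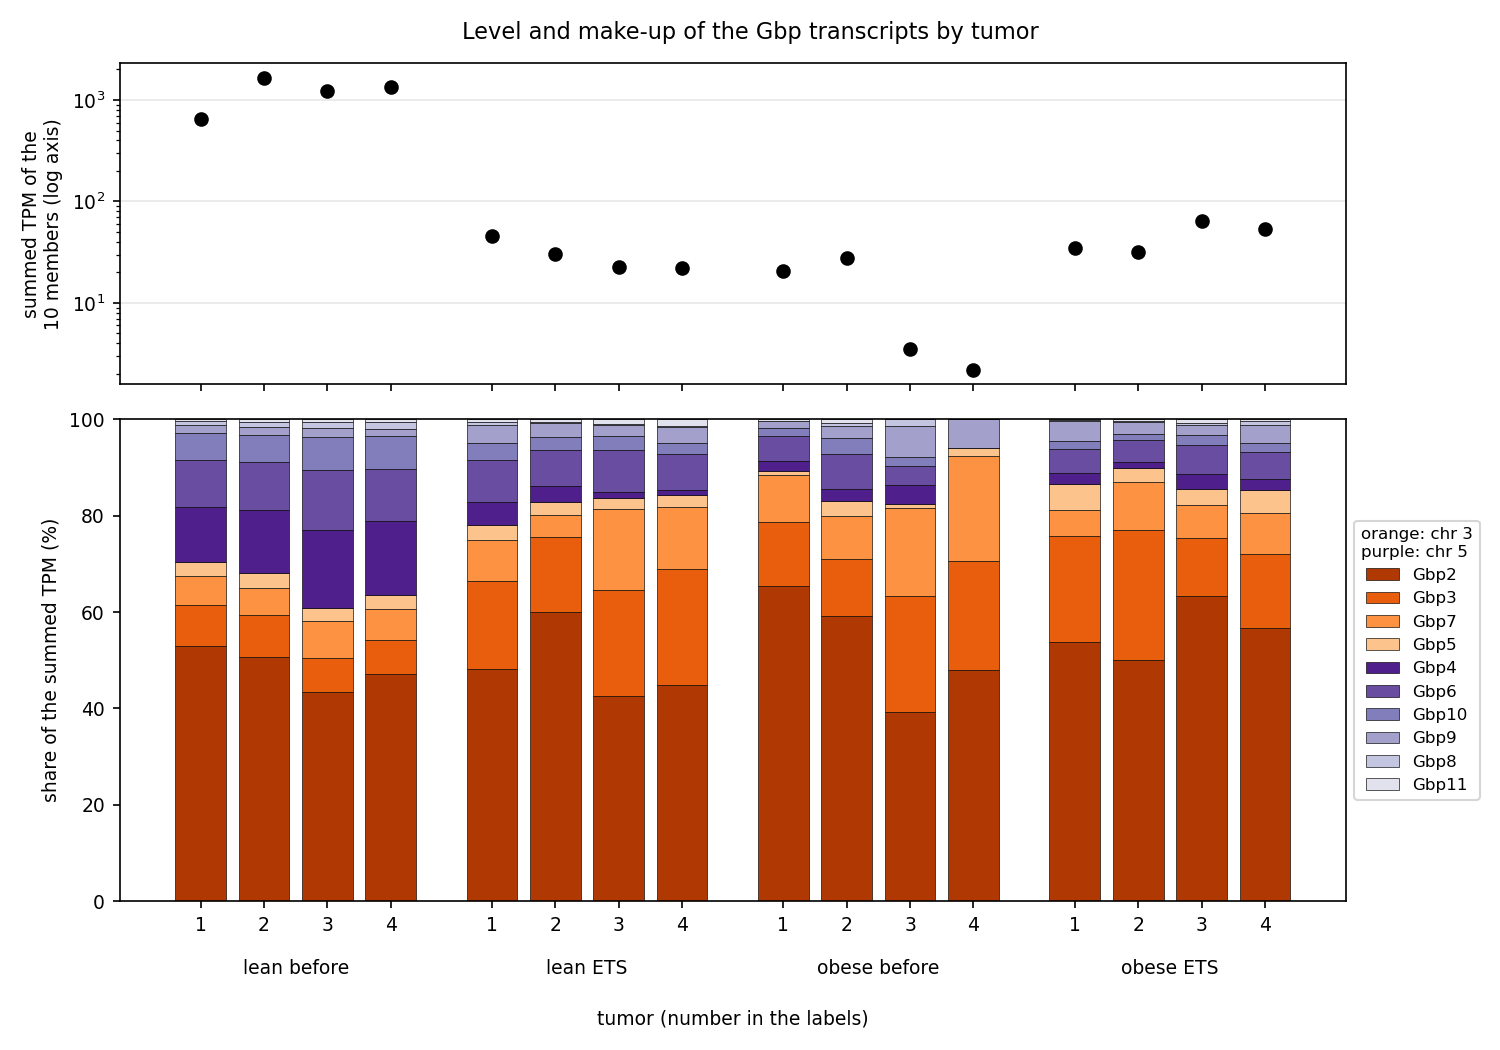
Summed TPM of the 10 members in each tumor on a log axis (upper panel) and the share of each member in that sum in percent (lower panel), with chromosome 3 members in orange and chromosome 5 members in purple. The purple share is 29.6% to 39.1% in the 4 lean pre-therapy tumors and at most 21.9% in the other 12.

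The order of the members differed between the groups. In lean tumors before therapy the mean TPM was 589 ± 207 (SD, n = 4) for Gbp2 and 174 ± 66.9 for Gbp4, followed by Gbp6, Gbp3, Gbp7, Gbp10, Gbp5, Gbp9, Gbp8 and Gbp11. Gbp2 lay above Gbp4 in range (346 to 843 against 74.7 to 217), and every later pair of neighbours in this order overlapped in range across the tumors. Compared within each tumor, neighbours kept this order with 2 exceptions. Gbp7 exceeded Gbp3 in tumor 3 (95.7 against 86.9 TPM), and Gbp10 exceeded Gbp7 in tumor 4 (89.7 against 85.0 TPM). In the other 3 groups the order began with Gbp2, Gbp3, Gbp7 and Gbp6. There Gbp3 was second with 5.84 ± 1.68 TPM in lean tumors after ETS, 1.81 ± 1.34 in obese tumors before therapy and 8.06 ± 0.392 in obese tumors after ETS.

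Within a group the members also varied together. Lean pre-therapy tumor 1 was the lowest of its group and tumor 2 the highest for all 10 members. In lean tumors after ETS, tumor 1 was the highest for 9 members, Gbp11 being the exception. In obese tumors before therapy, tumor 2 was the highest for all 10 and tumor 4 the lowest for 7. In obese tumors after ETS no tumor was the highest for more than 5 members, and tumor 2 was the lowest for 7. Over the 45 pairs of members, Pearson's r of log2 CPM over the 16 tumors lay between 0.904 and 0.990 (median 0.962). With each group centred on its own mean, r lay between 0.338 and 0.984 (median 0.792). All members of a tumor were read from the same library.

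The genes next to the clusters had smaller fold changes. Among the 4 nearest tested protein-coding genes around the chromosome 3 cluster (Bmpr1b, Pdlim5, Kyat3 and Gtf2b) and the 4 around the chromosome 5 cluster (Gm20385, Zfp951, Lrrc8b and Lrrc8c), which were chosen by position after the members' values were seen, the log2 fold change with ETS in lean tumors lay between -0.49 and 0.83. Of these 8, Zfp951 (-0.49, SE 0.18, edgeR adjusted p = 0.0407) and Lrrc8c (-0.40, SE 0.16, adjusted p = 0.0484) were called lower, a share near the 22.8% of all genes tested. Zfp951 was the only neighbour called in the comparison of obese with lean tumors before therapy (-0.52, SE 0.18, adjusted p = 0.0478), beside 12.9% of all genes called lower. None was called by edgeR for ETS in obese tumors, beside 21.2% of all genes called higher and 19.0% lower. There 3 of the 8 had an unadjusted p under 0.05 and the values ran from -0.42 to 1.01. The highest values, 0.83 for Gm20385 and 1.01 for Bmpr1b, come from genes with at most 0.438 and 0.771 CPM in any tumor. Inside the chromosome 5 cluster, the pseudogene Gm9640 had a mean of 1.33 CPM in lean and 0.0199 CPM in obese tumors before therapy.

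**Figure D4:**
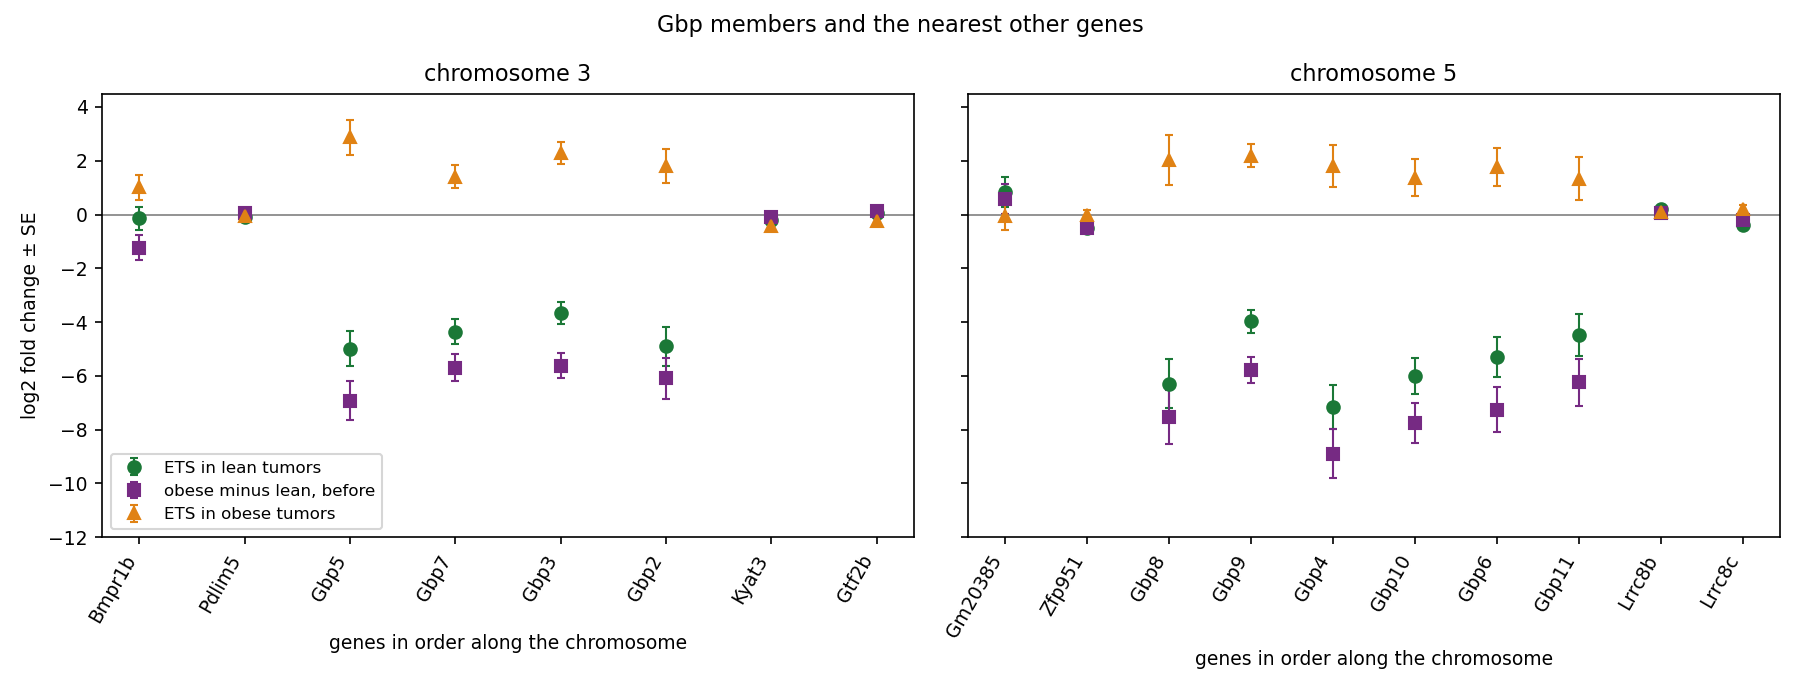
Log2 fold change with its standard error for the Gbp members and the 2 nearest tested protein-coding genes on each side, in their order along chromosome 3 (left) and chromosome 5 (right), for 3 comparisons. Members come from the fit with no gene excluded for a 0 and neighbours from the fit with that exclusion. The neighbours stay between -1.23 and 1.01, both values of Bmpr1b, which has at most 0.771 CPM, while the members lie below -3 in lean tumors with ETS.

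The genes whose pattern was most like that of the family were found by Pearson's r, over the 16 tumors, between each gene's log2 CPM and the mean log2 CPM of the 10 members. This mean was 6.55 ± 0.56 in untreated and 1.40 ± 0.64 in treated lean tumors, and -0.78 ± 1.71 in untreated and 1.65 ± 0.48 in treated obese tumors (SD, n = 4 each). Of 13523 genes with a mean of at least 1 CPM, 181 had an r over 0.9, and the median was 0.02. The top 10 were Igtp (0.992), Batf2 (0.991), Erap1 (0.989), Tapbpl (0.986), Tgtp1 (0.984), Tgtp2 (0.984), Ifi47 (0.984), Nlrc5 (0.983), Socs1 (0.983) and Iigp1 (0.982). Igtp, Tgtp1, Tgtp2, Ifi47 and Iigp1 are IRGs, Erap1, Tapbpl and Nlrc5 act in MHC class I presentation, Batf2 is a transcription factor and Socs1 an inhibitor of cytokine signaling. With each group centred on its own mean, their r lay between 0.804 (Socs1) and 0.956 (Iigp1). These values describe 16 tumors that fall into groups far apart.

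The pathway that leads to and from the Gbps was followed with a list of 49 genes sorted by role, of which 44 had counts in all tumors. With ETS in lean tumors, 26 of the 44 were called lower and 6 higher, where 22.8% and 21.0% of all genes tested were. In obese tumors 4 were called lower and 21 higher, beside 19.0% and 21.2% of all genes. Before therapy 29 were lower and 1 higher in obese than in lean tumors, beside 12.9% and 13.5% of all genes. After ETS 2 were lower and 1 higher, beside 2.30% and 3.28%. The list's median log2 fold changes in these 4 comparisons were -0.72, 0.37, -0.95 and -0.05, beside -4.36, 2.20, -5.78 and 0.38 for the 5 fitted Gbp members. Ifng, the interferon-γ ligand, had 1.38, 2.70, 1.005 and 2.34 CPM in lean tumors before therapy. In the other 12 tumors it had no more than 0.0798 CPM, and 9 of them had no count. None of the 4 ligands on the list had counts in every tumor.

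Of the 4 receptor chains, 3 were called lower with ETS in lean tumors, beside 22.8% of all genes tested. With ETS in obese tumors 1 of the 4 was called higher, near the 21.2% of all genes. All these changes were below 1 on the log2 scale. Ifngr1, the ligand-binding chain of the interferon-γ receptor, fell by 0.72 on the log2 scale in lean tumors (SE 0.13, edgeR adjusted p = 0.000685) and was not called in obese tumors (0.09, SE 0.13, adjusted p = 0.632). After ETS it was called higher in the obese hosts (0.49, SE 0.13, adjusted p = 0.0428). Ifngr2, its signaling chain, was not called by edgeR in any of the 5 comparisons, with an unadjusted p under 0.05 in 2 of them. Ifnar1 and Ifnar2, the chains of the type I interferon receptor, were called lower in lean tumors with ETS (-0.35 and -0.43) and in obese against lean tumors before therapy (-0.40 and -0.79), and Ifnar2 was called higher with ETS in obese tumors (0.34, SE 0.11, adjusted p = 0.0188).

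Of the 3 kinases, Jak2, which is bound to Ifngr2, was called lower with ETS in lean tumors (-0.72, SE 0.09, edgeR adjusted p = 4.63e-05) and was not called in obese tumors (0.02, SE 0.09, adjusted p = 0.908). Jak1, bound to Ifngr1, and Tyk2, bound to Ifnar1, were not called in lean tumors and were called higher in obese tumors with ETS (0.34, SE 0.10, adjusted p = 0.0133 and 0.35, SE 0.10, adjusted p = 0.0121). With ETS, 22.8% of all genes tested were called lower in lean and 21.2% higher in obese tumors. All 3 kinases were called lower in obese than in lean tumors before therapy, beside 12.9% of all genes. These differences were at most 0.77 on the log2 scale.

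The transcription factors Stat2, Irf9, Irf1, Irf2 and Irf8 were all called lower with ETS in lean tumors, beside 22.8% of all genes tested. They were also all called lower in obese than in lean tumors before therapy, beside 12.9% of all genes. Irf1, a factor that acts at Gbp genes, fell by 3.46 on the log2 scale in lean tumors with ETS (SE 0.28, edgeR adjusted p = 1.47e-06) and was not called in obese tumors (0.36, SE 0.26, adjusted p = 0.294). In obese tumors with ETS, Irf8, a factor of myeloid cells, was called higher (1.92, SE 0.45, adjusted p = 0.00386), as were Irf9 (1.29, SE 0.17, adjusted p = 8.32e-05) and Stat2 (0.84, SE 0.21, adjusted p = 0.00566), which act together in type I interferon signaling. Irf2 was not called there (0.09, SE 0.12, adjusted p = 0.561). Of all genes tested, 21.2% were called higher in that comparison.

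With ETS in lean tumors 2 of the 4 inhibitors were called lower, beside 22.8% of all genes tested. In obese tumors 3 were called higher and 1, Ptpn2, lower (-0.50, SE 0.13, edgeR adjusted p = 0.00834), beside 21.2% and 19.0%. Before therapy 3 were called lower in obese than in lean tumors, beside 12.9%. Ptpn2 was not called there (0.25, SE 0.13) or with ETS in lean tumors (-0.24, SE 0.13). Socs1, which blocks Jak kinases, had log2 fold changes with ETS of -3.38 (SE 0.32, edgeR adjusted p = 4.75e-06) in lean and 1.60 (SE 0.33, adjusted p = 0.00162) in obese tumors. Usp18, an inhibitor of type I interferon signaling, was not called in lean tumors (-0.83, SE 0.38, adjusted p = 0.0891) and rose by 3.33 in obese tumors (SE 0.43, adjusted p = 6.85e-05), beside 1.42 to 2.89 for the 5 fitted Gbp members.

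The IRGs, partner GTPases that work with the Gbps on vacuoles, had the lowest median of the roles on the list with ETS in lean tumors, -4.89 on the log2 scale. All 7 (Irgm1, Irgm2, Igtp, Iigp1, Tgtp1, Tgtp2 and Gm12250) were called lower with ETS in lean tumors, with log2 fold changes of -6.02 to -2.96, and all 7 were called lower in obese than in lean tumors before therapy (-7.64 to -5.17), beside 22.8% and 12.9% of all genes tested. In obese tumors with ETS the 7 had fold changes between 1.62 and 2.13, and Igtp, Irgm1 and Irgm2 were called higher, beside 21.2% of all genes. None was called by edgeR between the hosts after ETS, where 0 of 7 had an unadjusted p under 0.05. Igtp had 342, 655, 556 and 675 CPM in lean tumors before therapy and 13.2, 14.9, 26.2 and 22.1 CPM in obese tumors after ETS.

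Of the inflammasome genes that act downstream of the Gbps, 7 of 8 were in the fit. With ETS in lean tumors 6 were called lower and Il18 higher, beside 22.8% and 21.0% of all genes tested. In obese tumors 5 were called higher and Pycard, the inflammasome adaptor, lower, beside 21.2% and 19.0%. Casp1, the caspase that matures interleukin-1β, had fold changes of -2.72 (SE 0.45, edgeR adjusted p = 0.000326) and 1.94 (SE 0.46, adjusted p = 0.00429), and Gsdmd, the pore former, of -2.47 (SE 0.26, adjusted p = 9.48e-06) and 1.04 (SE 0.26, adjusted p = 0.00508). The 8 genes of the conjugation machinery that loads Gbps on vacuoles were followed as well, with 5 genes of the prenylation pathway that modifies Gbp2 and Gbp5. With ETS in lean tumors 4 conjugation genes were called higher and 1 lower, at most 0.73 from 0. Of the 5 prenylation pathway genes 1 was called higher, where 21.0% of all genes were called higher and 22.8% lower. The share of conjugation genes called higher, 4 of 8, was thus above that of all genes. The shares of prenylation pathway genes called higher and of conjugation genes called lower were no larger than those of all genes. With ETS in obese tumors 3 conjugation genes were called higher and 1 lower, and 1 prenylation pathway gene was called lower. Of all genes, 21.2% were called higher and 19.0% lower there.

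T and NK cell markers, like the family, were highest in lean tumors before therapy. The sum of the 7 T cell markers was 19.2 to 37.8 CPM in lean tumors before therapy and at most 1.77 CPM in the other 12 tumors. Of its defining genes, Cd3e had no count in any obese tumor before therapy and Cd2 none in any lean tumor after ETS. The sum of the 6 NK cell markers was 32.4 to 58.2 CPM in lean tumors before therapy, 0.322 to 1.71 CPM in lean tumors after ETS, 0.0530 to 0.558 CPM in obese tumors before therapy and 0.679 to 4.15 CPM in obese tumors after ETS, and Ncr1 had no count in the obese pre-therapy group. With no gene excluded, 6 of 7 T cell and 4 of 6 NK cell markers were called lower with ETS in lean tumors, beside 12.5% of all genes. With ETS in obese tumors, 1 of 7 T cell markers (Cd3e) and 3 of 6 NK cell markers (Gzmb, Ncr1 and Nkg7) were called higher, beside 10.9% of all genes, and the T cell sums overlapped between untreated (0.0353 to 1.38 CPM) and treated obese tumors (0.453 to 1.77 CPM). Their part in the Gbp levels was not tested.

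The sum of the 8 macrophage markers was 359 to 1167 CPM in lean tumors before therapy and 46.8 to 355 CPM after ETS, and it was 40.2 to 230.3 CPM in obese tumors before therapy and 293 to 944 CPM after ETS. Of the 8, 6 were called lower with ETS in lean tumors and 6 higher in obese tumors, and 7 were lower in obese than in lean tumors before therapy, beside 22.8%, 21.2% and 12.9% of all genes tested. Unlike the Gbp members, macrophage markers in obese tumors after ETS overlapped with the lean tumors before therapy. The 6 fibroblast markers also went in opposite directions in the hosts (3 called lower in lean and 6 higher in obese tumors, beside 22.8% and 21.2% of all genes), with sums of 369.7 to 1046 CPM in lean tumors before therapy and 392 to 3068 CPM in obese tumors after ETS. The melanocyte sum was 18067 to 22652 CPM in lean tumors before therapy and 11168 to 15086 CPM in obese ones. The part of macrophages, fibroblasts and tumor cells in the Gbp levels was not tested.

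**Figure D5:**
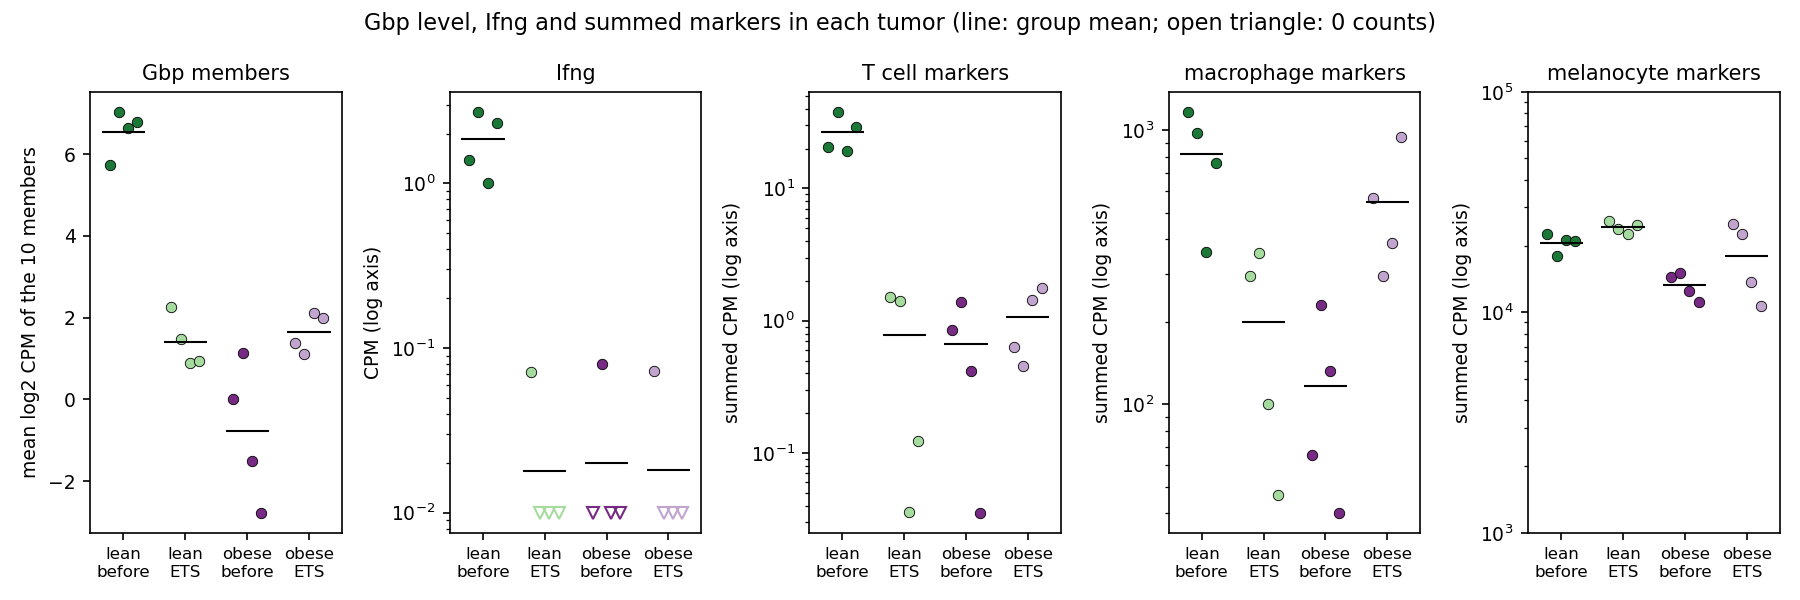
Mean log2 CPM of the 10 Gbp members, Ifng in CPM, and the summed CPM of T cell, macrophage and melanocyte markers in each of the 16 tumors (log axes except the first panel), with the group mean as a line and counts of 0 as open triangles at a nominal height. Gbp members, Ifng and T cell markers set the lean pre-therapy tumors apart, while macrophage markers are also high in obese tumors after ETS and the melanocyte sum lies between 10692 and 26070.4 CPM in all tumors.

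Of the 5 endothelial markers, 4 were called higher with ETS in obese tumors (median log2 fold change 1.16), 1 lower with ETS in lean tumors (median -0.61) and 3 lower in obese than in lean tumors before therapy (median -1.12), beside 21.2%, 22.8% and 12.9% of all genes tested. Their sum lay between 45.1 and 216 CPM, and their part in the Gbp levels was not tested. B cell markers summed to 0.992 to 2.57 CPM in all 16 tumors, and the one that was in the fit, Cd79a, was called higher with ETS in lean (1.62, SE 0.26, edgeR adjusted p = 0.000232) and in obese tumors (0.72, SE 0.25, adjusted p = 0.0347). Dendritic cell markers summed to 22.3 to 42.5 CPM in lean tumors before therapy and 5.55 to 11.0 CPM in the rest. Neutrophil markers reached 20.9 CPM in obese pre-therapy tumor 4 and 28.3 CPM in obese ETS tumor 4, with at most 14.2 CPM elsewhere. Adipocyte markers lay between 7.66 and 253 CPM with the highest sums in obese tumors after ETS. Skeletal muscle markers exceeded 100 CPM in lean pre-therapy tumor 2, lean ETS tumors 1 and 2 and obese ETS tumor 2, and the keratinocyte genes Krt5 and Krt14 summed to 78.8 CPM in obese ETS tumor 2 and 3.37 CPM in lean pre-therapy tumor 2. Lean pre-therapy tumor 2, with muscle and skin transcripts, was the highest of its group for all Gbp members, and obese ETS tumor 2 was the lowest of its group for 7. Lean ETS tumor 1 was the highest of its group for 9 members, and lean ETS tumor 2 was the lowest for 2. The part of admixed muscle and skin in the Gbp levels was not tested.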

How the data were processed

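RNA was sequenced from 16 B16F10 tumors in 4 groups of 4 with a TruSeq stranded kit. The submitters' processing notes name bcl2fastq 2.20.0, Trimmomatic, HISAT2 2.1.0, StringTie 2.1.3b and the mm10 genome, and whether reads were counted by strand is not given in the sources used here. The deposited table held, for each tumor, read counts, TPM and FPKM made by the authors per gene from StringTie. The counts were tested, the TPM were used to compare levels between genes, and the 16 FPKM columns were not used. Total counts lay between 47199949 and 61655287, and these totals limit the precision of low values such as Gbp8 and Gbp11. Floors of 3 counts cover counting error only.

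Groups were taken from the labels. The study's exclusion of genes that had a 0 in one or more tumors was kept, which left 16209 of 45777 genes. One edgeR 4.0.16 quasi-likelihood model (TMM, 1 mean per group, 16 tumors, R 4.3.3) gave the 4 comparisons and the difference of the ETS effects, with p-values adjusted by Benjamini-Hochberg across the 16209 genes and a threshold of 0.05. The procedure was tested on simulated data. Log2 CPM used a prior count of 2. Alternatives were DESeq2 1.42.0 (its test and its size factors), limma 3.58.1 (voom with sample weights, and log2(TPM + 1)), the exact test of edgeR on counts with 1 added, other filters, only the groups compared, a prior count of 0.5, a replicate block and leaving out each tumor.

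The members, the pathway list and the marker lists were chosen with earlier results of these data known. The genes named are all members, Gbp2b, the pathway list by role, the 10 genes of at least 1 mean CPM most correlated with the mean log2 CPM of the members, and the 2 nearest tested protein-coding genes on each side of each cluster, the last added after the values were seen. Tables were handled with python 3.11.15, pandas 2.3.3, numpy 2.4.6 and biopython 1.88. Promoters came from RefSeq (GRCm38.p6). One gene of the pathway list is counted in the totals of the list and is not reported here. The effect of the strand and of near copies on the counts was not tested.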

Additional observations from a re-analysis of the deposited data

Results flagged for a closer look

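The effect of ETS differed between the hosts for all 5 members fitted with genes with a 0 excluded. The difference of the effects, lean minus obese on the log2 scale, was -6.69 for Gbp2, -5.95 for Gbp3, -7.86 for Gbp5, -5.77 for Gbp7 and -6.16 for Gbp9. The members were selected on these levels, so the differences are a description.

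Single tumors stood apart from their group for Gbp8. In lean tumors before therapy, tumor 1 was the lowest, and its gap to the next tumor was 0.829 of the range of the group. In lean tumors after ETS, tumor 1 was the highest, with a gap of 0.861 of the range. Of 40 groups of 4 tumors examined, these 2 were past the critical value, and sampling alone gives about 1 in 20.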

How the results depend on the processing

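With no gene excluded for a 0, or with the filterByExpr rule of edgeR, 10 members were called in place of 5 for ETS in lean tumors, for obese against lean tumors before therapy and for the difference of the ETS effects, because all 10 then entered the fit. With no gene excluded, 3585, 2278 and 1853 of 28754 genes were called lower in these comparisons, in this order. With filterByExpr the counts were 3861, 2343 and 1996 of 17746 genes. Leaving out each tumor in turn gave 5 to 8 members in each of these comparisons, with 8 without obese pre-therapy tumor 4, when more members passed the filter. Without that tumor 3644, 1543 and 1405 of 16320 genes were called lower. For ETS in obese tumors, 3 of 5 were called with only the groups compared in the fit, and 3 to 5 with a tumor left out, the 3 without obese pre-therapy tumor 3. Over all genes, 3438 were called higher in the main fit, 2854 with only the groups compared and 2644 without that tumor. The median fold change with ETS in obese tumors was 2.20 in the main fit to counts (1.95 to 2.71 with a tumor left out). On log2(TPM + 1), which understates the change of low genes, it was 1.17. On that scale the difference of the mean log2 level was 0.945 for ETS in obese tumors (2.44 on log2 CPM, 1.77 to 3.08 with a tumor left out), and -5.11 for obese against lean tumors before therapy (-7.33 on log2 CPM, -7.97 to -6.67 with a tumor left out). For the pathway list after ETS, 3 genes were called between the hosts, 1 with limma-voom, 0 with only the groups compared, and 1 to 4 with a tumor left out (1 without lean ETS tumor 1). The cause was not tested where none is named. Of single genes, 10 calls were lost under an alternative, all for ETS in obese tumors, and no called value was reversed. Values that were not called, such as those between the hosts after ETS, were not checked for their sign.

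Whether the replicate numbers pair the tumors was not established. Correlations between same-numbered tumors, of deviations from the group means, lay between -0.05 and 0.45, and the main fit treated the tumors as unpaired. A replicate block gave 5, 5, 5, 0 and 5 members called in the 5 comparisons, with median fold changes of -4.33, 2.29, -5.86, 0.46 and -6.32. Of 16209 genes, the block called 4047 lower with ETS in lean and 3643 higher with ETS in obese tumors. It called 2356 lower in obese than in lean tumors before therapy and 882 higher after ETS. For the difference of the effects it called 1791 lower. Depth limits Gbp8, Gbp11 and the members with a 0 most.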
